A study of Mus musculus with 12 samples.

Results

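The 6 arrays described here hold RNA of megakaryocytes kept with vehicle, the resting state of this series. They are 6 of its 12 arrays and were chosen by the treatment label alone. The other 6 arrays, with 100 nM dexamethasone, were not analysed here, and no effect of the hormone was tested. Haematopoietic stem cells from bone marrow of male C57BL/6 mice were grown for 3 days with thrombopoietin at 100 ng per ml, then overnight in medium with 10% charcoal-stripped serum, which is poor in steroid hormones. The cells were purified as day 4 megakaryocytes over a gradient of bovine serum albumin (0, 1.5 and 3%), given vehicle for 6 h, and 50 ng of RNA was amplified per array. Each culture was split between vehicle and dexamethasone. Such a gradient enriches large cells and is not a sort by surface marker, and the labels do not say what the vehicle was. The labels call the 6 arrays biological replicates, named culture 1 to 6 here by replicate number. Their descriptions also number these samples 1, 4, 5, 6, 7 and 8 in that order, so culture 2 here carries the number 4 there. They do not say whether the cultures came from separate mice. The SDs below measure only the spread between these 6 samples.

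Megakaryocytes are the marrow cells that release platelets. Under thrombopoietin they copy their DNA without dividing and fill their cytoplasm with membranes and granules. They then extend proplatelets, long processes driven by microtubules and bounded by a spectrin and actin skeleton, from which platelets are shed. The RNA they hold therefore includes much of what a platelet later carries: adhesion receptors, granule cargo, agonist receptors and the signalling proteins beneath them.

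Each array held 72688 probe sets, of which 65956 were transcript clusters and 5222 were negative controls. All levels below are means of the deposited log2 values ± SD over the 6 cultures (n = 6). The probe set with the highest mean stood for each of the 30142 genes that had a symbol of their own, of which 355 had several probe sets. A level reflects the probes as well as the RNA, so levels of different genes are not an order of RNA amounts. They are read here against the controls, and where genes are ranked the order is one of signal alone. A gene was called above the negative controls when it exceeded their 95th percentile on its own array on 6 of 6 arrays. That percentile was 10.29, 10.25, 10.04, 10.23, 10.10 and 10.31 in cultures 1 to 6. A gene was called near the negative controls when it lay at or below their median, 6.15 to 6.33, on 6 of 6 arrays, and between otherwise. Of the 30142 genes, 3518 (11.7%) lay above, 10655 (35.3%) lay between and 15969 (53%) lay near. The threshold passed through a continuous range of levels. Med7 at 10.39, Gm5321 at 10.48 and Leprotl1 at 10.35 lay just inside it, and Mob1a at 10.34, Naxe at 10.41 and Sh3gl1 at 10.35 lay just outside. It is also a strict threshold, since even the median of the negative controls, 6.15 to 6.33, lay above the median of all probe sets, 5.58 to 5.67. Of the 5222 negative controls 45 exceeded 14 on every array, and the brightest of them averaged 19.73. Measured instead against the 95th percentile of the 23 background controls, 15925 genes (52.8%) lay above on 6 of 6 arrays. A gene near the negative controls was not detectable above them at this setting, which does not show that its RNA was absent.

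**Figure D1:**
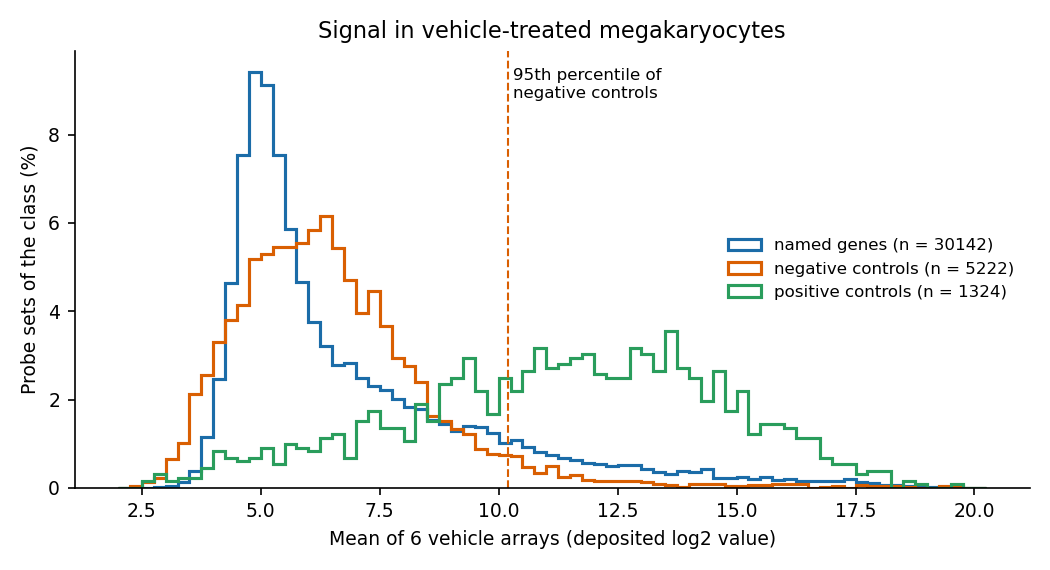
Distribution of the mean log2 value over the 6 vehicle arrays for named genes, negative controls and positive controls, as a percentage of each class in bins of equal width; the dashed line is the mean 95th percentile of the negative controls. The bulk of named genes lies at or below the middle of the negative controls, and a tail, with the 11.7% of genes called above, extends to the right of the line.

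The 4 genes used to mark the lineage, Pf4, Itga2b, Tubb1 and Gp9, lay above the negative controls on 6 of 6 arrays. Pf4 encodes platelet factor 4, a heparin-binding chemokine of alpha granules. Its level in cultures 1 to 6 was 18.96, 18.92, 18.96, 18.94, 18.90 and 18.97, with a mean of 18.94 ± 0.027. The cultures were nearly level, and only 5 of the 30142 genes had a higher mean signal. Pf4 lay close to the highest value on any array, 19.93. Genes at levels from 18 to 20 had a low median SD too, 0.0623. Itga2b encodes integrin alpha IIb, the larger chain of the fibrinogen receptor, and measured 15.45, 15.30, 15.37, 15.35, 15.33 and 15.39 (mean 15.37 ± 0.051). Gp9 encodes glycoprotein IX of the von Willebrand factor receptor and measured 15.86, 15.94, 16.00, 16.03, 15.70 and 15.86 (mean 15.90 ± 0.12). Culture 5 was the lowest for Gp9, as it was for Pf4. Tubb1 encodes the beta-tubulin of platelets and of the proplatelet shaft. It measured 13.32, 13.75, 13.79, 13.57, 12.92 and 12.93 (mean 13.38 ± 0.39). Cultures 2, 3 and 4 were high and cultures 5 and 6 low, and Tubb1 had the largest SD of the 4 markers.

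The promoters of these 4 genes are shown with those of a ferritin chain and a cytoskeletal gene, because they differ in their content of CG dinucleotides. Each line is 250 bases upstream of the start of transcription in RefSeq (build GRCm38.p6), 5′ to 3′ on the strand of the gene, and capitals mark CG dinucleotides.
Pf4 (chr5:90772185-90772434, plus strand): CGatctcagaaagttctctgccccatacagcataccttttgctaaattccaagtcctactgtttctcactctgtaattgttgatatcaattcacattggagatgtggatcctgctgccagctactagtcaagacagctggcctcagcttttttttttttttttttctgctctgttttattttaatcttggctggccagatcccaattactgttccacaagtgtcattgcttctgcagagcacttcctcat
Itga2b (chr11:102469884-102470133, minus strand): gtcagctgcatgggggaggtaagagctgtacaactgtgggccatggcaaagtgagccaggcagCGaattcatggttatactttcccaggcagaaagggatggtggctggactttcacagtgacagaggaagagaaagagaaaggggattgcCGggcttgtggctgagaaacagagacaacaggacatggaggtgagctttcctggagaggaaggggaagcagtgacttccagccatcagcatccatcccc
Gp9 (chr6:87777820-87778069, plus strand): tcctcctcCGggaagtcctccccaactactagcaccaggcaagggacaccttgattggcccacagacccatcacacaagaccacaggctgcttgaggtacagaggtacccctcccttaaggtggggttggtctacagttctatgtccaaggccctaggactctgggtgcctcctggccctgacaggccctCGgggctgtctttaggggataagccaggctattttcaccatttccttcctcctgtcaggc
Tubb1 (chr2:174450345-174450594, plus strand): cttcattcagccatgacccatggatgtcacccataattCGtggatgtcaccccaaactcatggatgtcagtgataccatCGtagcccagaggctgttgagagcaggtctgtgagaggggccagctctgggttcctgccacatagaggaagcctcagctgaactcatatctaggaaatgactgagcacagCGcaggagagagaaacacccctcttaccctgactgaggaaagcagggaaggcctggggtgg
Ftl1 (chr7:45459887-45460136, minus strand): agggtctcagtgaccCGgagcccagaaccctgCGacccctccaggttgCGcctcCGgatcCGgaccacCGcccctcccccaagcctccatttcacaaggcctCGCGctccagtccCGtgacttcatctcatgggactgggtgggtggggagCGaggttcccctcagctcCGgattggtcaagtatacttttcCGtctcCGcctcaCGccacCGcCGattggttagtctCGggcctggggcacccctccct
Flna (chrX:74246535-74246784, minus strand): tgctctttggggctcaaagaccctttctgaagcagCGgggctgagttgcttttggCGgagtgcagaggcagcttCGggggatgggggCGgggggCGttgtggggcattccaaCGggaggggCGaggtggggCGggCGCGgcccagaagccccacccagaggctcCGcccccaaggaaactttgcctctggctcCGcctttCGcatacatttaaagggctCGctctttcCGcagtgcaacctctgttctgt
Within these stretches Pf4 held 1 CG dinucleotide, Itga2b 2, Gp9 2 and Tubb1 3, against 17 in Ftl1 and 15 in Flna. RefSeq promoters were at hand for 27025 genes, and 17970 of them matched a gene with a value here. The median count was 6 over all promoters, 18 for protein-coding genes above the negative controls (n = 1815), 15 for those between and 4 for those near. Of the platelet surface genes above the negative controls, 58.8% had at most 5 CG dinucleotides (n = 17), against 12.2% of all protein-coding genes above. The median count was 5 for these surface genes, 4 for alpha granule cargo above (n = 9), 16 for proplatelet and membrane skeleton genes above (n = 27) and 16.5 for ribosomal protein genes above (n = 20). Low counts were not particular to platelet genes: at most 5 CG dinucleotides stood in 84.2% of promoters of the neutrophil list, 76.5% of the monocyte list and 72.2% of the lymphocyte list. Dense granule genes above had 10% and a median of 17. These are descriptions of the sequences with no test.

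Short motifs were searched on both strands of the same 250 bases. The GATA motif, spelled as AGATAA or as AGATAG, or with another first letter as TGATAA or as TGATAG, was in none of the 6 stretches and in 27.1% of all promoters. The ETS motif AGGAAG occurred in the 4 marker promoters and in 29.2% of all promoters. It stood in 73.7% of promoters of the neutrophil list, 52.9% of the monocyte list, 55.6% of the lymphocyte list and 42.9% of the platelet surface list. The match began at -9 in Pf4, -125 and -43 in Itga2b, -16 in Gp9 and -106 in Tubb1, counted from the start, and in Pf4 and Gp9 it read CTTCCT, the motif on the opposite strand. Ftl1 and Flna held no match to it. The NF-E2 or AP-1 motif TGAGTCA was in none of the 6 and in 4.43% of all promoters. The 4 GATA spellings overlap one another in their inner letters, and none of the 3 motifs contains another. A match is a description and not a site of binding.

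Of the lineage lists, platelet surface glycoproteins and integrins stood furthest above the controls, with 22 of 25 measured members above and 3 near. Their median level was 15.37, against 5.83 over all named genes. At the stricter 99th percentile of the negative controls 16 members stayed above. The fibrinogen receptor's other chain, Itgb3, measured 17.11 to 17.20 with a median of 17.18 (mean 17.17 ± 0.034). The tetraspanin Cd9 was as even, at 17.37 to 17.45 with a median of 17.41. The podoplanin receptor Clec1b ran from 17.25 to 17.46 around a median of 17.34, with culture 5 lowest. The von Willebrand factor receptor subunit Gp5 averaged 16.92 ± 0.073, and the collagen receptor Gp6 averaged 15.77 ± 0.16. Gp6 was low in cultures 1 and 5, at 15.58 and 15.60, and high in cultures 2 and 3, at 15.92 and 15.94. Itga6, a laminin receptor chain, averaged 16.31 ± 0.084, and Itga2, of the collagen-binding integrin, 12.92 ± 0.12. Ceacam1, an inhibitory receptor, was the lowest of the members above, at 10.80 ± 0.12. The members near the controls were the scavenger receptor Cd36 (5.25 ± 0.10), the junction protein Jam3 (5.27) and Trem3 (4.99). Gp1ba, Gp1bb and Mpig6b were not analysed here.

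Alpha granule cargo divided into a bright and a dim set, with 14 of 34 measured members above, 10 between and 10 near. The second chemokine of the granule, Ppbp, measured 18.81, 18.86, 18.82, 18.71, 18.75 and 18.71 in cultures 1 to 6 (mean 18.78 ± 0.063). Among adhesive and clotting proteins, thrombospondin Thbs1 averaged 17.43 ± 0.15, coagulation factor F5 16.22 ± 0.12, Vwf 15.50 ± 0.062 and the clot-linking transglutaminase F13a1 14.72 ± 0.19. In the deposited values each of these 4 was lowest in culture 5. The growth factors Tgfb1 (15.41 ± 0.098) and Angpt1 (14.68 ± 0.053), the membrane cargo protein Mmrn1 (14.53 ± 0.057) and serglycin, Srgn (14.12 ± 0.065), were above as well. Fibrinogen, which platelets take up from plasma, gave the opposite picture: its 3 chains Fga (4.79), Fgb (4.61) and Fgg (4.41) lay near the negative controls on 6 of 6 arrays. So did fibronectin Fn1 (5.86), Igf1 (5.81) and Egf (5.19). Vegfa (7.71), Pdgfb (6.73) and Sparc (7.02) lay between.

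Granule biogenesis and dense granule genes had 14 of 30 measured members above, or 4 at the stricter threshold, with a median of 9.47. The lysosomal membrane proteins Lamp1 (16.13 ± 0.032) and Lamp2 (15.44 ± 0.038) were the brightest. The small GTPase Rab27b, which docks dense granules, varied little, from 14.92 to 14.99 (median 14.96). Slc18a2, the vesicular monoamine transporter, averaged 12.73 ± 0.16 and Slc35d3 12.57 ± 0.16. The release machinery was represented by Snap23 (14.83 ± 0.033), Stxbp2 (13.29 ± 0.054), Vamp8 (12.64 ± 0.11) and Stx11 (10.42 ± 0.13). Among Hermansky-Pudlak genes, whose loss leaves platelets without dense granules, Ap3b1 (12.85 ± 0.060) was above, while Hps4 (8.33), Hps5 (7.94), Hps3 (7.23) and Hps1 (6.97) lay between, and Hps6 (5.81) lay near.

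Of the transcription factors of the lineage, 14 of 30 measured lay above and 11 between; at the stricter threshold 3 remained. Fli1, the ETS factor of the lineage, ran from 15.67 to 15.75 around a median of 15.69. Elf1 averaged 15.29 ± 0.034 and Mef2c 14.31 ± 0.080. Gata1, a factor that defines the lineage, measured 10.95, 10.98, 10.94, 10.88, 10.80 and 10.83 (mean 10.90 ± 0.073), and Nfe2 averaged 11.82 ± 0.052. Runx1 averaged 11.32 ± 0.15, Zfpm1, the partner of Gata1, 11.28 ± 0.035, and Gfi1b 12.62 ± 0.094. Tal1 exceeded the threshold on 5 of 6 arrays and was 10.23 in culture 2. Gata2, a factor of earlier progenitors, lay between at 7.86, as did Myb at 8.49, and Mecom lay near at 4.96.

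**Figure D2:**
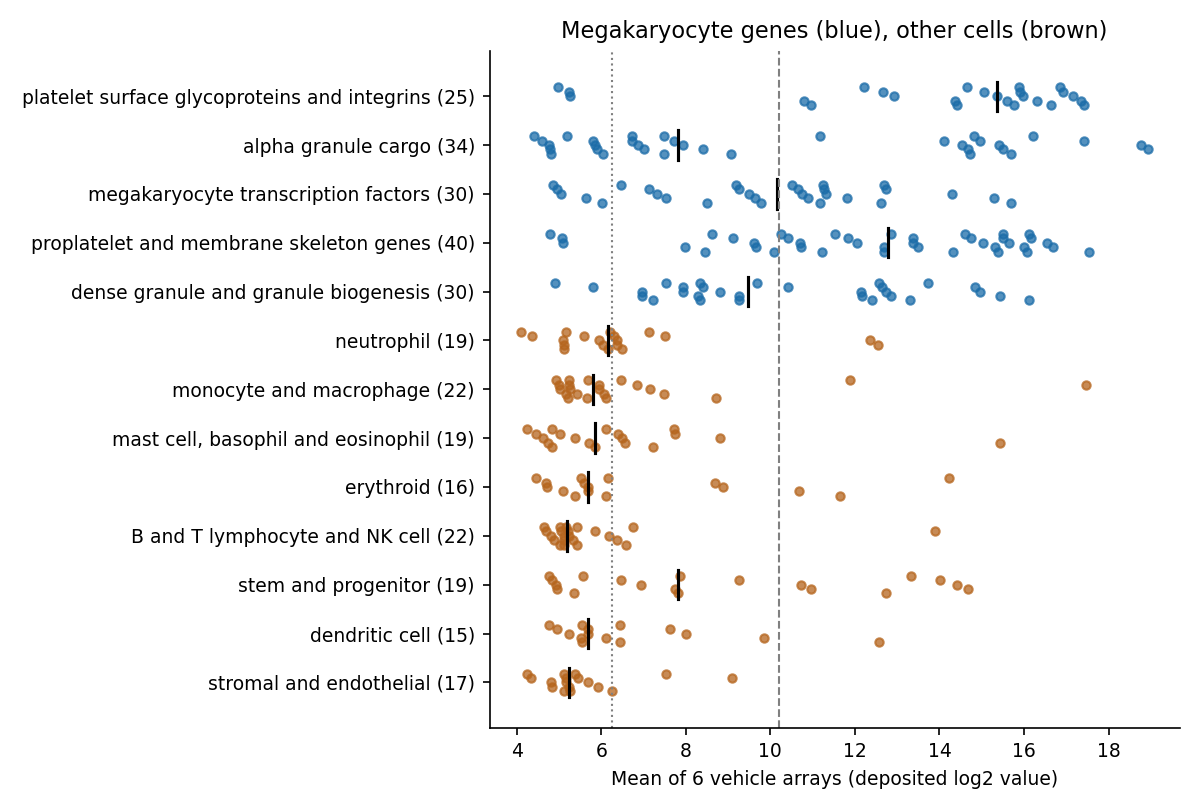
Mean log2 value over the 6 vehicle arrays for the members of 13 lists, with the number measured in brackets; each point is a gene (megakaryocyte lists in blue, other cells in brown), the black bar is the list median, the dashed line is the mean 95th percentile of the negative controls and the dotted line their mean median. Platelet surface genes have 22 of 25 points to the right of the threshold, and the lists of other mature blood cells have 1 to 3 points there.

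The proplatelet and membrane skeleton list had 28 of 40 measured members above, 9 between and 3 near, and 16 above at the stricter threshold. Tropomyosin Tpm4 averaged 17.54 ± 0.053, vinculin Vcl 16.68 ± 0.063, cofilin Cfl1 16.54 ± 0.056, filamin Flna 16.16 ± 0.042 and talin Tln1 15.51 ± 0.040. The nonerythroid spectrins Sptbn1 (14.74 ± 0.050) and Sptan1 (12.69 ± 0.055) lay above. The erythroid form Sptb lay between at 9.61, and ankyrin Ank1 (5.06) and adducin Add2 (5.10), also known from red cells, lay near. The regulators Rac1 (15.39 ± 0.062), Rhoa (15.03 ± 0.065) and Cdc42 (14.32 ± 0.045), GTPases that steer actin, were above. Myh9, the nonmuscle myosin chain of platelets, was not analysed here.

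Most families held members above, between and near the controls. Of 8 beta-tubulins, Tubb1, Tubb2a (12.99 ± 0.14) and Tubb5 (12.97 ± 0.12) were above, 3 lay between and the neuronal forms Tubb3 (5.83) and Tubb4a (5.66) lay near. Of 5 measured alpha-tubulins, Tuba4a (17.41 ± 0.16), Tuba1c (16.96 ± 0.063), Tuba1a (16.51 ± 0.079) and Tuba8 (13.17 ± 0.19) were above. Tuba4a was highest in culture 2, at 17.63, and lowest in culture 6, at 17.18. Among filamins, talins, kindlins and alpha-actinins, Flna, Tln1, Fermt3 (15.32 ± 0.061), Actn1 (12.86 ± 0.081) and Actn4 (11.75 ± 0.071) were above. The other 6 of the 11 measured there lay near, including the muscle form Actn2 (5.17) and the forms of other tissues Fermt1 (4.86), Fermt2 (4.99) and Tln2 (5.22). Fermt3 is the kindlin of blood cells. All 9 myosin heavy chains measured, among them Myh10 (5.34) and Myh14 (5.63), lay near. Of 4 measured actins, Actb (17.80 ± 0.046) was above and the smooth muscle forms Acta2 (5.38) and Actg2 (5.76) near.

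Integrin chains lay on both sides of the threshold. Of 17 measured alpha chains, Itga6, Itga2b and Itga2 were above, 4 lay between and 10 near. Over all genes 11.7% lay above and 53% near, so the alpha chain counts do not show a restriction to few chains. Of 8 beta chains, Itgb3 and Itgb1 (15.88 ± 0.071) were above, and Itgb2 (9.83), the leukocyte chain, lay between. Itgav (8.82), the partner of Itgb3 in the vitronectin receptor, and the fibronectin receptor chain Itga5 (8.15) lay between. The leukocyte alpha chains Itgam (5.69) and Itgax (5.51) lay near.

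**Figure D3:**
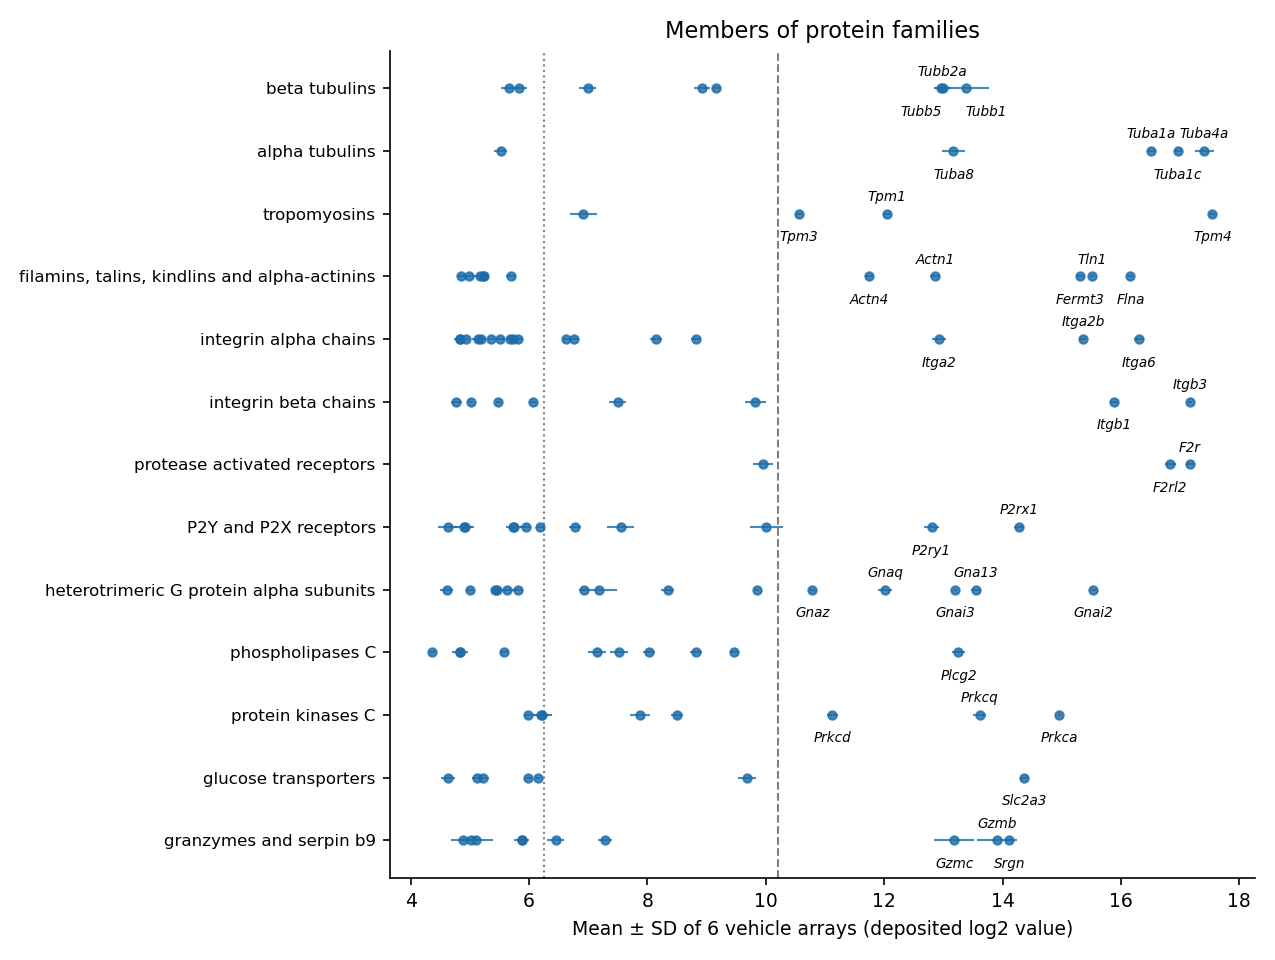
Mean ± SD of the log2 value over the 6 vehicle arrays for members of 13 families; each point is a gene, members above the negative controls are named, the dashed line is the mean 95th percentile of the negative controls and the dotted line their mean median. For example, 3 of 8 beta-tubulins and 2 of 12 P2Y and P2X receptors are named and lie right of the dashed line.

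Receptors for platelet agonists had 8 of 22 measured members above, 13 between and 1 near. F2r, which encodes the thrombin receptor PAR1, measured 17.07 to 17.27 with a median of 17.16. F2rl2, the PAR3 cofactor of mouse platelets, averaged 16.83 ± 0.095. F2rl3, which encodes PAR4, the receptor that signals for thrombin in mouse platelets, lay between: it measured 10.06, 9.63, 9.94, 10.13, 10.01 and 9.99, below the threshold on all 6 arrays. For ADP and ATP, P2rx1 (14.29 ± 0.084) and P2ry1 (12.80 ± 0.13) lay above. P2ry12, the target of clopidogrel, measured 10.20, 10.15, 10.38, 9.86, 9.82 and 9.64, and exceeded the threshold in culture 3 only. The prostaglandin E receptor Ptger3 (12.67 ± 0.13) was above. The prostacyclin receptor Ptgir (9.89), the serotonin receptor Htr2a (9.59) and the thromboxane receptor Tbxa2r (7.43) lay between. Lpar1 (5.62) was the member near.

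Signalling below the collagen and podoplanin receptors had 21 of 26 measured members above, 5 between and none near, with a median of 13.10. At the stricter threshold 9 were above. The receptor chain Fcer1g averaged 15.43 ± 0.065, the adaptors Lat 15.71 ± 0.064 and Lcp2 15.15 ± 0.055, the kinases Btk 14.29 ± 0.057 and Syk 10.92 ± 0.11, and Plcg2 13.26 ± 0.12. The small GTPases that switch integrins on, Rap1b and Rap1a, averaged 17.26 ± 0.053 and 16.62 ± 0.050. Their exchange factor Rasgrp2 lay between at 10.22. Plcg2 was the only phospholipase C of 10 above, a share near the 11.7% of all genes. The protein kinases C above were Prkca (14.96 ± 0.024), Prkcq (13.61 ± 0.11) and Prkcd (11.12 ± 0.094), and Prkcz (5.98) was near. Of 5 measured Src family kinases Fyn (11.47 ± 0.074) was above, Src lay between at 8.92, and Lyn was not analysed here.

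Among G protein alpha subunits Gnai2 (15.53 ± 0.043), Gna13 (13.55 ± 0.086), Gnai3 (13.21 ± 0.025), Gnaq (12.01 ± 0.12) and Gnaz (10.79 ± 0.045) were above, 5 of 15. They include the subunits that carry thrombin, ADP and thromboxane signals. The retinal subunits Gnat1 (4.61) and Gnat2 (5.46) and the neuronal Gnao1 (5.63) lay near. For calcium, the pumps Atp2a3 (13.66 ± 0.087) and Atp2a2 (12.92 ± 0.059) and the store sensors Stim1 (11.82 ± 0.065) and Stim2 (10.66 ± 0.067) were above. The channel Orai1 (9.79) lay between, and the muscle pump Atp2a1 (5.83) and 3 ryanodine receptors lay near. Of the phosphodiesterases Pde5a (14.60 ± 0.090) and Pde3a (12.76 ± 0.10), which break down cyclic nucleotides in platelets, were above, 2 of 12, near the 11.7% of all genes.

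The eicosanoid list had 8 of 18 measured members above. Alox5ap, the helper of 5-lipoxygenase, averaged 16.61 ± 0.055. The platelet lipoxygenase Alox12 measured 15.43, 15.63, 15.71, 15.64, 15.24 and 15.46 (mean 15.52 ± 0.18), with culture 5 lowest. The phospholipase Pla2g4a (14.28 ± 0.039), thromboxane synthase Tbxas1 (13.79 ± 0.090) and Alox5, at 12.73 to 13.18, were above too. Ptgs2 lay between at 9.27, and prostacyclin synthase Ptgis (5.57), an enzyme of vessel walls, lay near. Ptgs1 was not analysed here.

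The thrombopoietin pathway had 7 of 23 measured members above and 14 between. Jak2, a tyrosine kinase of cytokine signalling, averaged 13.36 ± 0.12, and the phosphatase Ptpn11 15.51 ± 0.031. The transcription factors Stat3 (10.08), Stat5b (8.36) and Stat5a (7.72) lay between, and the feedback inhibitors Socs1 (5.76) and Socs3 (5.35) lay near. Of the steroid receptors none of 5 was above, and the glucocorticoid receptor Nr3c1 lay between, at 8.97 to 9.15 with a median of 9.03. In the Bcl2 family the death effector Bak1 (12.80 ± 0.13) and the survival factor Mcl1 (12.58 ± 0.083) were above, and Bcl2l1 (10.00), on which platelet survival depends, lay between.

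The cell cycle list had 9 of 45 measured members above and 31 between. Cdkn1a, the inhibitor p21, averaged 17.00 ± 0.10 and cyclin Ccnd2 14.78 ± 0.13. Ccnd2 was the single member above among 6 D, E and A type cyclins, against 11.7% of all genes, which does not show a restriction to it. The replication clamp Pcna (13.92 ± 0.065), the kinase Cdk6 (13.03 ± 0.18) and the helicase subunit Mcm6 (12.00 ± 0.14) were above, and so were Mki67 (11.38 ± 0.37) and Top2a (11.25 ± 0.35), which mark cycling cells. Aurkb (6.64), a kinase of cell division, Aurka (8.37) and Plk1 (8.31) lay between, and the cytokinesis factor Ect2 (4.99) lay near. Kif11 and Ccnb2 each exceeded the threshold on some arrays and averaged 10.62 and 10.29.

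In energy metabolism a few isoforms were above. The glucose transporter Slc2a3 averaged 14.37 ± 0.074 and was the 1 of 7 above, a share near the 11.7% of all genes. Slc2a1 lay between at 9.68. Pkm (14.36 ± 0.064) and Ldha (12.37 ± 0.066), enzymes at the end of glycolysis, were above, and Ldhb (5.88) lay near. Of cytochrome oxidase and adenine translocase isoforms 8 of 13 were above. The general forms Cox6a1 (16.16 ± 0.071) and Cox8a (15.48 ± 0.090) were above, and the heart and muscle forms Cox6a2 (5.75) and Cox8b (4.96) lay near. Other tissue forms went the other way: the heart and muscle translocase Slc25a4 (11.46 ± 0.050) and the testis form Cox6b2 (11.15 ± 0.082) were above, and the heart form Cox7a1 (8.91) lay between. Both ferritin chains, Ftl1 (17.98 ± 0.049) and Fth1 (15.39 ± 0.060), and the transferrin receptor Tfrc (14.22 ± 0.078) were above. Of class I antigen presentation B2m (18.61 ± 0.052), H2-D1 (14.48 ± 0.083) and H2-K1 (13.57 ± 0.083) were above, 3 of 14. None of 12 Toll-like receptors was above on every array, though Tlr7 exceeded the threshold on 3 of 6.

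The 20 genes with the highest signal lay between 18.51 and 19.34. They were Rn28s1, mt-Rnr1, Gm14303, Rpl41, ND6, Pf4, ND3, Ppbp, Gm10443, Gm10925, Gm7079, Mir3473a, Gm3699, Rpl31-ps8, COX1, B2m, Ubb-ps, Gm12013, Ctla2a and Gm15148. By the RefSeq biotype 8 were protein coding, 8 pseudogenes, 1 a transcribed pseudogene, 2 ribosomal RNAs and 1 a microRNA locus. Rn28s1, the large ribosomal RNA, averaged 19.34 ± 0.066, and mt-Rnr1, the small ribosomal RNA of mitochondria, 19.13 ± 0.073. Platelet cargo (Pf4 and Ppbp) thus stood beside ribosomal and mitochondrial genes. Ctla2a, a cysteine protease inhibitor, ran from 18.48 to 18.56 with a median of 18.52. Of the brightest 100 genes 69 were pseudogenes and 14 protein coding, while pseudogenes made up 14.2% and protein-coding genes 63.2% of all genes measured. A pseudogene resembles its parent gene in sequence, and 446 genes in 127 groups had the same 6 values as another gene, so those signals are uncertain. Whether pseudogene signal comes from the parent RNA was not tested. Among genes by biotype 22.0% of 4274 pseudogenes lay above, 11.7% of 19046 protein-coding genes and 1.10% of 3169 long noncoding RNAs.

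Restricted to protein-coding genes, a choice made after the values were seen, the brightest 20 were Rpl41, ND6, Pf4, ND3, Ppbp, COX1, B2m, Ctla2a, Rps29, Hspa8, Gm7429, Rpl37a, Ftl1, Actb, Rpl7a, Gm6570, Rpl27, Pabpc1, Tpm4 and Rps3a1. Hspa8 (18.12 ± 0.093) is a chaperone and Pabpc1 (17.55 ± 0.022) binds messenger RNA tails. Of the ribosomal protein list 24 of 34 measured members lay above and 10 between, from Rpl41 at 19.05 to Rps14 at 7.68. How much of this range comes from the probe sets and how much from the RNA was not tested. The mean over all probe sets of a gene moved Rpl41 to 14.39, Rpl7a to 14.96 and Rpl27 to 14.42. Long noncoding RNAs above were Malat1 (17.97 ± 0.11), Neat1 (14.83 ± 0.29), Norad (11.93 ± 0.13) and Tug1 (11.08 ± 0.069), 4 of 9 measured. The Y-linked Eif2s3y lay above at 11.54 ± 0.090 and Xist near at 5.70, and the labels give male mice.

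The lists of other mature blood cells had 1 to 3 members above, which for some was close to the share of all genes. Of the neutrophil list 1 of 19 measured members was above, of the monocyte and macrophage list 2 of 22, of the mast cell list 1 of 19, of the erythroid list 3 of 16 and of the lymphocyte list 1 of 22, against 11.7% of all genes. Near the controls lay 8, 12, 10, 9 and 17 of those lists in that order, against 53% of all genes, so 11 of the 19 neutrophil members were not near. The erythroid share above, 3 of 16, was not below that of all genes, and the monocyte share, 2 of 22, was close to it. The shares near of the monocyte, mast cell and erythroid lists were also close to that of all genes. Of the stem and progenitor list 7 of 19 were above, a larger share than over all genes. Of the dendritic list 1 of 15 was above and of the stromal and endothelial list 0 of 17. The list of liver, muscle, brain and gut genes had 0 of 27 above, 5 between and 22 near, and 1 of 1225 olfactory receptors and 0 of 492 vomeronasal receptors were above. The medians of the lists of other mature blood cells ran from 5.19 for lymphocytes to 6.15 for neutrophils.

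The exceptions among them were few and bright. Lyz2, lysozyme of myeloid cells, ran from 17.28 to 17.56 with a median of 17.49, and its copy Lyz1 from 11.69 to 11.96. The 2 genes are near-identical copies, and how the probes tell them apart was not tested. The defining macrophage markers Csf1r (5.43) and C1qa (5.02) lay near, and Cd68 (7.16), Ly6c2 (8.72) and Adgre1 (6.07) lay between. Fcer1g, on the mast cell list, is also the platelet collagen receptor's chain, and the mast cell markers Ms4a2 (5.85) and Fcer1a (4.75) lay near. Cpa3 (7.73) and Mcpt8 (6.56) lay between. Clec9a, an antigen uptake receptor of dendritic cells, averaged 12.56 ± 0.25, with Itgax (5.51) and Zbtb46 (4.95) near and Siglech (6.11) between. Hbb-y, the embryonic globin, averaged 11.65 ± 0.31, was lowest in culture 4 at 11.14 and highest in culture 3 at 11.97. Without culture 4 its SD fell from 0.313 to 0.205. Klf1 (4.69) lay near and Alas2 (6.12) between, and the adult globins were not analysed here. Of the stem cell markers Cd34 (13.33 ± 0.15) was above and Flt3 (4.75), Procr (5.37) and Hlf (5.57) lay near. Of the other stem list members above, Angpt1, Slamf1, Meis1 and Esam also stand on the megakaryocyte lists, and Myct1 (14.01) and Ctnnal1 do not.

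The granzymes were a further exception. Gzmb, a serine protease of killer lymphocytes, measured 14.02, 13.27, 13.84, 14.13, 14.19 and 13.99 (mean 13.91 ± 0.33), and Gzmc measured 13.53, 12.59, 13.18, 13.05, 13.26 and 13.47 (mean 13.18 ± 0.34). Both were lowest in culture 2, and without it their SDs were 0.137 and 0.201. Gzma (5.03), Gzmk (5.10) and the pore protein Prf1 (4.89) lay near, as did the lymphocyte markers Cd3e (5.13) and Cd79a (5.44), with Ncr1 at 6.38 between. The mean of the 3 measured lymphocyte markers ran from 5.47 to 5.87 over the cultures. The part of lymphocytes in the granzyme signal was not tested.

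Spread between cultures was small for most genes. The SD over the 6 cultures had a median of 0.128 over all named genes and 0.0991 over the 3518 genes above the negative controls. In the latter the 95th percentile of the SD was 0.229, and 50 genes exceeded 0.3 and 9 exceeded 0.5. The median SD was 0.134 for genes at levels up to 6 and 0.0623 for those from 18 to 20. The 10 steadiest genes above were Atf1, Psme4, 2610507B11Rik, Gm2427, Stxbp5, Actr3, Vezf1, Ptpn12, Dlg1 and Ano6. Atf1, a transcription factor of the CREB family, stayed within 12.38 to 12.41, an SD of 0.010. Actr3, a subunit of the Arp2/3 complex that branches actin, stayed within 15.62 to 15.67. Correlations between the arrays over all probe sets were 0.990 to 0.993, a description over probe sets of shared design.

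**Figure D4:**
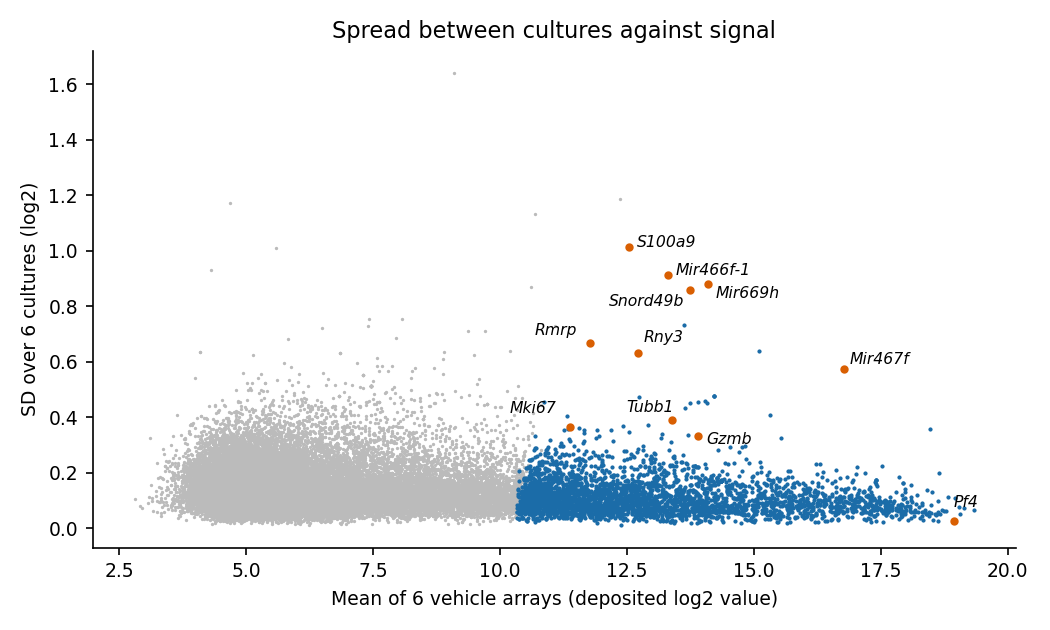
SD over the 6 cultures against the mean log2 value for all 30142 named genes, with genes above the negative controls in blue, others in grey and selected genes named in orange. Pf4 lies near the bottom at an SD of 0.027, and S100a9 lies at 1.01.

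The largest SD among genes above belonged to a neutrophil gene. S100a9, a subunit of the calcium-binding protein calprotectin, measured 13.55, 10.82, 11.87, 13.01, 13.15 and 12.88 in cultures 1 to 6 (mean 12.54 ± 1.01). Its partner S100a8 measured 13.43, 10.21, 11.79, 12.74, 13.05 and 12.94 (mean 12.36 ± 1.19) and lay below the threshold in culture 2 alone, so it counts as between. Both were lowest in culture 2, next lowest in culture 3 and highest in culture 1. Without culture 2 the SDs were 0.624 and 0.613, and the neutrophil list had 2 members above in place of 1. The granule proteins Camp (7.09 in culture 2 and 7.95 in culture 1) and Ngp (6.35 and 7.58) showed the same lowest and highest culture. Of the 11 neutrophil list members not near the controls, 7 were lowest in culture 2 and 7 highest in culture 1. Over all genes above, 43.2% were lowest in culture 2 and 24.0% highest in culture 1. Ly6g was lowest in culture 5 and highest in culture 3, and Cxcr2 and Ctsg were not lowest in culture 2. Over the 7 defining neutrophil markers the mean level ran from 7.33 in culture 2 to 8.61 in culture 1. Elane (5.10) lay near on all 6 arrays and Mpo (6.38) and Ltf (6.15) between. In bulk RNA, fewer cells of a type and less RNA per cell cannot be told apart.

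Several small structured RNAs were also lowest in culture 2. Snord49b, a small nucleolar RNA, measured 14.39, 12.18, 14.46, 14.15, 13.37 and 13.88. Rmrp, the RNA of the RNase MRP enzyme, measured 12.46, 10.55, 11.62, 12.04, 11.84 and 12.17, and the Y RNA Rny3 measured 12.72, 11.61, 13.40, 13.16, 12.47 and 12.92. Snord49b and Rny3 were highest in culture 3 and Rmrp in culture 1. The SDs of 0.86, 0.67 and 0.63 were 0.443, 0.319 and 0.365 without it. The U3 loci Rnu3b1 to Rnu3b4, of which the first 3 share identical values, were lowest in culture 2 and highest in culture 6 under each of the 3 scalings compared (as deposited, array medians centred, quantile). The ribosomal RNA biotype held 62 genes with only 23 distinct sets of values, 51 of them 5S loci, and 53 of the 62 were lowest in culture 2 and 53 were highest in culture 1. Their median SD was 0.514, and 54 of them lay between and 5 near. Quantile normalization kept these extremes, with 54 and 52 of 62. Small RNAs as a class did not share this order: 6 of the 15 small nucleolar RNAs above were lowest in culture 2, near the 43.2% of all genes above. The 163 small nuclear RNAs above had their lowest median deviation in culture 3 (-0.24), against -0.04 in culture 2.

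Loci of the Mir466, Mir467 and Mir669 families had their extremes in other cultures. Of 72 such loci 15 were above (20.8%, against 6% of 600 microRNA loci and 11.7% of all genes). Of these 15, 14 were highest in culture 2, 3 or 6, and 14 were lowest in culture 1 or 5. These cultures were grouped after the values were seen. Over all genes above, 5.32%, 13.4% and 15.3% were highest in cultures 2, 3 and 6. Lowest in cultures 1 and 5 were 7.70% and 9.15%. Of the 36 microRNA loci above, which include these 15, the counts were 25 and 17. Mir466f-1 measured 11.87, 14.68, 13.30, 13.10, 13.19 and 13.71, and Mir669h measured 12.58, 15.14, 14.24, 14.30, 13.74 and 14.61. In both, culture 1 was the lowest and culture 2 the highest, and without culture 1 the SDs fell from 0.912 to 0.648 and from 0.879 to 0.517. Mir466j measured 14.46, 15.55, 15.68, 14.68, 14.45 and 15.80. The median deviation of the 15 loci from their means was -0.36, 0.35, 0.26, -0.27, -0.43 and 0.37 in cultures 1 to 6. Sfmbt2, the host gene of many of these loci, lay between at 7.09. The mean over all probe sets moved Mir669h to 10.92 and Mir467f to 13.09.

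Mature sequences are shown for 5 of these loci and for a pair of bright loci of other families. For 22 of the 36 microRNA loci above, mature sequences from RefSeq (build GRCm38.p6) were used here. They gave 24 sequences with 24 distinct seeds, so no seed was shared within this set. Seeds of the other loci above, among them Mir466f-1, Mir466f-3, Mir466f-4 and Mir3471-2, were not compared, so sharing among all loci above was not tested. Capitals mark the seed, bases 2 to 8.
miR-467f: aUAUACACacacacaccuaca
miR-466j: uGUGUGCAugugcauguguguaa
miR-466k: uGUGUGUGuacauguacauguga
miR-467h: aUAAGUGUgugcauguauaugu
miR-669n: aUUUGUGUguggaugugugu
miR-3473a: uGGAGAGAuggcucagca
miR-3470b: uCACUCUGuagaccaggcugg
The longest run of alternating u and g or alternating a and c was 12 bases in miR-467f, 9 in miR-466k, 8 in miR-669n and 7 in miR-466j and miR-467h, against 2 in miR-3473a and 3 in miR-3470b. Such runs were not limited to these families, since miR-3097-5p, of another family, held a run of 8 and miR-5123 a run of 5. The loci of miR-3473a and miR-3470b were among the brightest microRNA loci, at 18.64 ± 0.20 and 18.45 ± 0.057. Of 41 loci on the list of blood cell microRNAs 18 were measured and none of these was above, against 6% of 600 microRNA loci. Mir223, Mir126a, Mir21a and Mir451a were among those not analysed here. Mir142, known across blood cells, lay between at 8.21 and Mir150, of mature lymphocytes, near at 3.15. Whether such signals come from mature microRNA, its hairpin, a host transcript or repeats elsewhere was not tested.

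Cell cycle genes varied together as well. Of the 40 members not near the controls 29 were highest in culture 5 and 11 in culture 1. Over all genes above, 32.0% were highest in culture 5 and 24.0% in culture 1. The count in culture 1 was thus close to the share of all genes. The median deviation of the 40 members was 0.27 in culture 5 and 0.17 in culture 1, against -0.14 in culture 6. Mki67 measured 11.73, 11.40, 10.89, 11.21, 11.87 and 11.18, and Top2a ran from 10.83 in culture 6 to 11.74 in culture 5 with a median of 11.18. The ubiquitin-conjugating enzyme Ube2c, active in mitosis, measured 12.27, 11.83, 11.64, 11.75, 12.40 and 11.52. In all 3, cultures 1 and 5 were the highest. After quantile normalization 27 of the 40 were highest in culture 5, 10 in culture 1 and 3 in culture 3. Of the platelet lists, 10 of the 22 surface genes and 15 of 24 alpha granule genes not near the controls were lowest in culture 5. With array medians centred those counts were 5 and 6, and with quantile normalization 15 and 15, so they depend on the scaling. As deposited, other megakaryocyte lists, again without members near the controls, differed. Lowest in culture 5 were 2 of 28 dense granule genes, 2 of 25 transcription factors and 2 of 21 agonist receptors, and in culture 2 15, 12 and 9. Over all genes above, 9.15% were lowest in culture 5 and 43.2% in culture 2. After quantile normalization 7 dense granule genes were lowest in culture 5 and 5 in culture 2. For transcription factors these counts were 5 and 5, so this difference depends on the scaling too. Beside Tubb1, other protein-coding genes with a large SD were Runx3, Npy, Crip1 and Muc6. Without culture 3 the SD of Muc6 fell from 0.358 to 0.212. Runx3 measured 12.19, 11.44, 11.57, 11.97, 12.23 and 11.99, low in cultures 2 and 3. Runx1 was lowest in the same cultures, at 11.16 and 11.10, within a narrower range that reached 11.44.

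**Figure D5:**
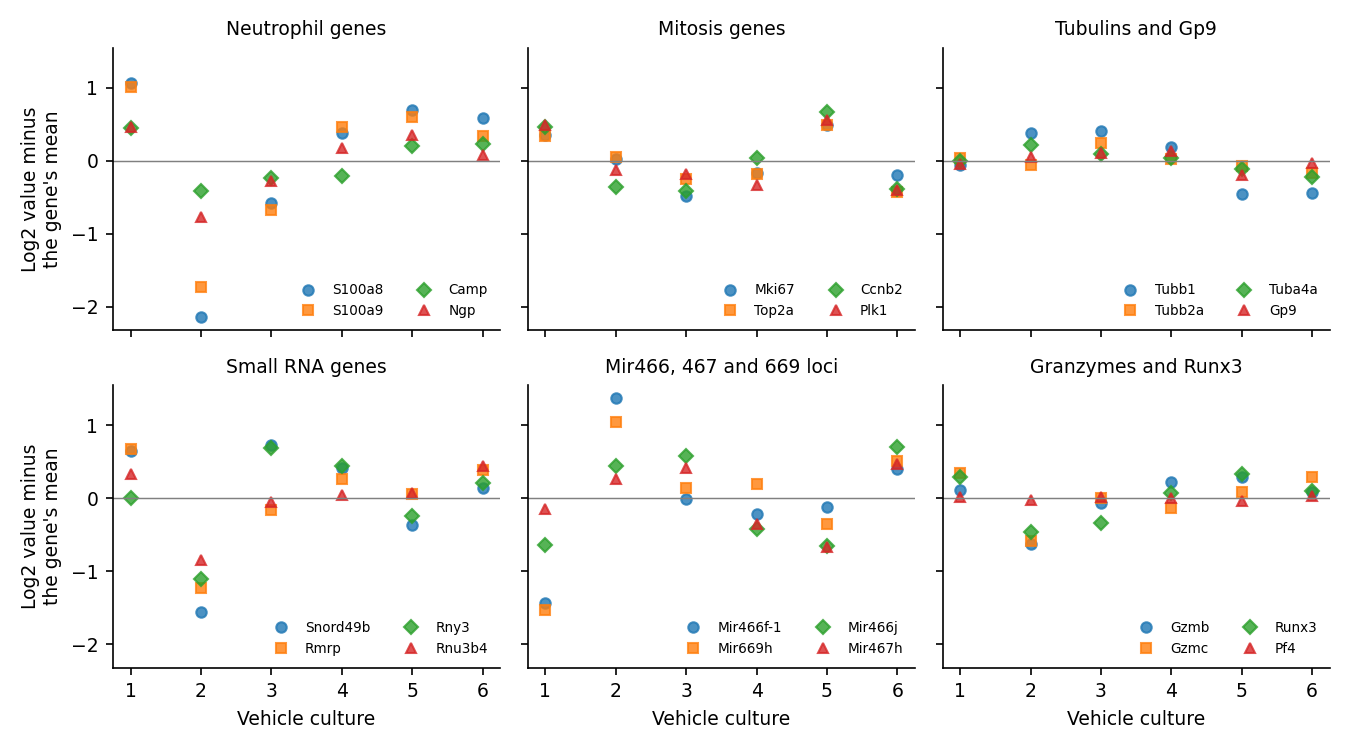
Deviation of the log2 value from the mean of the gene (vertical axis) in each of the 6 vehicle cultures (horizontal axis), for 6 sets of 4 genes chosen after their values were seen. Neutrophil and small RNA genes are lowest in culture 2, mitosis genes are highest in cultures 1 and 5, Tubb1 is high in cultures 2 to 4, and Pf4 stays near 0.

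Over the genes above as a whole, culture 2 was the lowest array for 1519 of 3518 (43.2%) and culture 5 the highest for 1126 (32.0%). After quantile normalization culture 2 was the lowest for 774 (22.0%), so this share depends on the scaling. The median deviation of these genes was -0.07 in culture 2 and 0.05 in culture 5, smaller in size than the median deviation of the ribosomal RNA loci in culture 2 (-0.88) and of the Mir466 group in culture 5 (-0.43).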

How the data were processed

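Expression was read from the values deposited for 6 vehicle arrays, one per culture. Per the labels, RNA was amplified, labelled with biotin and hybridised by the authors. How the authors corrected background, normalized arrays and summarized probes are steps not given in the sources used here. Deposited values were taken as log2 because they ran from 2.11 to 19.93, and they were used with no further scaling. Symbols came from the platform annotation: 30604 probe sets had 1 symbol, 2146 had several, which were left unnamed, and 33206 had none. RefSeq (GRCm38.p6) matched 22818 of them and updated 827 names. Named genes were the 4 markers, the 20 brightest, the 20 with the largest and the 10 with the smallest SD among genes above the negative controls, and members of gene lists. The genes and lists were chosen with earlier results of these data known. Of 1026 listed symbols 831 had a value. No groups were compared and no test was run. Alternatives were other control percentiles, fewer arrays, other probe set rules, array medians centred, quantile normalization and leaving out each culture. The counting was checked on simulated data. Python 3.11.15, numpy 2.4.6, pandas 2.3.3 and matplotlib 3.10.9 were used. The number of arrays, the choice of probe set, the threshold and the unstated normalization all bear on these values.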

Additional observations from a re-analysis of the deposited data

Results flagged for a closer look

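Of 301 sets of 6 values examined, in 9 a single array stood apart from the other 5 by a larger share of the whole range than Dixon's critical value for 6 samples. Chance does this in about 1 of 20 sets. Culture 2 was the low array in 5 of them, at 16.80 for the cell cycle inhibitor Cdkn1a, 15.73 for the cytochrome oxidase subunit Cox6b1, 18.51 for the pseudogene Rpl31-ps8, 17.09 for the ribosomal protein gene Rpl35 and 13.42 for Rplp0. Culture 6 was low for mt-Rnr1 at 18.99 and for 2610507B11Rik at 13.85. Culture 5 was low for the integrin-activating GTPase Rap1a at 16.52. Culture 3 was high for Ly6g6c at 11.21. Outside the named genes, 2203 of 33206 transcript clusters without a symbol (6.63%) lay above the negative controls on 6 of 6 arrays, which was not examined further.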

How the results depend on the processing

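The count of genes above the negative controls, 3518, depended on the threshold. It was 952 at their 99th percentile, 5331 at their 90th and 12202 at their median, and 15925 against the background controls. It was 3854 when 3 of 6 arrays were enough and 3494 with the mean of all probe sets of a gene, and it was unchanged by quantile normalization, which keeps the order within an array. Leaving out 1 culture gave 3518 to 3581 genes. The median SD of 0.128 was 0.115 after quantile normalization, 0.133 with array medians centred and 0.120 to 0.130 without 1 culture. Of 64 list counts 40 moved by over 1.5 times at the 99th percentile and 19 at the 90th. Of the levels of 83 named genes 9 moved with the mean of all probe sets, among them Ache to 11.95 and Rnu3b4 to 10.04. No paired analysis was possible because a single group was described and no test was run. Arrays give no read depth. A gene near the negative controls has only an upper bound against them, and it can still exceed the background controls. Fn1, called near, measured 5.78 to 5.92, while the 95th percentile of the background controls was 4.98 to 5.60.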
